A study of Mesocricetus auratus with 14 samples.

Results

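Transcripts of ATF4 and of genes around it in the integrated stress response were followed in the liver of Syrian golden hamsters (Mesocricetus auratus) given the compound DC371739. The 10 genes, chosen by symbol, were the transcription factors Atf4, Atf5 and Ddit3, the pseudokinase gene Trib3, the amino acid enzymes Asns, Psat1 and Phgdh, the stress gene Sesn2, the phosphatase subunit gene Ppp1r15a and the kinase gene Eif2ak3. They were put together with results of this same treatment comparison known, so their treatment differences are given as a description and support nothing further. Of the 10 symbols, 7 had a row in the authors' table of 10023 genes with symbols, and all 7 were among the 12166 genes that passed the filter on low counts. Ddit3, Asns and Psat1 had no row under those symbols and are not analysed here. The groups were 7 liver samples labelled DC371739 and 7 labelled control, and both groups were on a high-fat diet. The labels give no strain, sex, age, dose or duration. They also do not say that each sample came from its own animal, so errors and p-values below measure the spread between samples, which may be technical.

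In the integrated stress response, kinases that sense endoplasmic reticulum stress, amino acid shortage, haem shortage or viral RNA phosphorylate the translation factor eIF2. General protein synthesis then slows, while the messenger RNA of Atf4 is translated more efficiently, because of short reading frames upstream of its coding sequence. ATF4 protein in turn activates genes of amino acid supply, of transfer RNA charging and of negative feedback. The pathway is thus controlled largely at translation and by phosphorylation, and neither is measured by RNA sequencing.

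Libraries held 13672589 to 23948628 counts. Of the 14, 3 stood apart by depth, DC371739 replicate 7 and control replicates 6 and 7, with 22152239 counts or more, against at most 16710097 in the other 11, called shallower here. Their 10 most abundant genes took 27.4 to 27.6% of counts, against 23.0 to 25.0% in the shallower libraries. The members are given with and without these 3 libraries. A wider gene printed below with a log2 fold change has a second result where leaving them out changed a call, a sign or a value by over 1.5 times. Further wider genes changed in these ways too, and are held only in the counts per fit. The hepatocyte marker list (9 of its 11 genes had a row, Alb and Apoa1 among them) summed to 112500 to 135100 CPM (counts relative to library size, scaled with TMM factors) in DC371739 livers and to 115000 to 149400 CPM in control livers. None of the 9 was at 0 throughout. Macrophage markers (14 of 15 with a row) summed to 804 to 1257 CPM in DC371739 livers and 714 to 1076 CPM in control livers, and stellate and fibroblast markers (11 of 11) to 322 to 519 CPM against 248 to 369 CPM. By edgeR's test 3 macrophage markers rose over 14 libraries. In a fit that adds a term for library class 8 rose, and in the shallower libraries 6. For stellate and fibroblast markers these counts were 0, 1 and 2, and for hepatocyte markers 0, 1 and 1 (Hnf4a). Of all genes tested 1.24%, 5.62% and 11% were called higher in these fits. Over 14 libraries the log2 fold changes of macrophage markers were positive for 10 and negative for 4. Those of stellate and fibroblast markers were positive for 10 and negative for 1. Hepatocyte markers, by contrast, had 2 positive and 7 negative values, Hnf4a being among the positive ones. Over all genes tested 5675 were positive and 6491 negative. Endothelial markers (8 of 8) summed to 219 to 302 CPM in DC371739 livers and 181 to 277 CPM in control livers, and lymphocyte markers (7 of 11) to 7.94 to 17.5 CPM against 6.30 to 12.2 CPM. Of these, 0 rose over 14 libraries in either list, and 2 endothelial markers and 1 lymphocyte marker rose in each of the other fits. The part of these cells in the results below was not tested. In whole liver, fewer cells of a type and less RNA per cell cannot be told apart.

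Per length, the members fell into 2 abundant factors and 5 scarcer transcripts. Atf5, a relative of ATF4 whose translation is likewise favoured under stress, averaged 176 ± 35.5 FPKM in DC371739 livers and 241 ± 78.9 FPKM in control livers (SD, n = 7 each). Atf4 averaged 121 ± 9.87 FPKM in DC371739 livers and 163 ± 16.0 FPKM in control livers, above 94.6% of the authors' genes with symbols. The ranges of the 2 factors overlapped in each group. Trib3 followed at 14.3 ± 2.5 and 11.4 ± 5.04 FPKM in DC371739 and control livers, and Phgdh at 9.87 ± 2.73 and 9.49 ± 2.83 FPKM. Ppp1r15a stood at 8.51 ± 1.39 and 9.40 ± 2.62 FPKM, Eif2ak3 at 5.17 ± 0.91 and 5.28 ± 1.03 FPKM, and Sesn2 at 4.46 ± 1.34 and 3.73 ± 1.14 FPKM. These 5 formed a graded order in which the ranges of neighbours overlapped in each group, except for Ppp1r15a and Eif2ak3 in DC371739 livers. There Ppp1r15a, at 6.62 to 10.1 FPKM, lay above Eif2ak3, at 3.90 to 6.17 FPKM. No library brought any of the 5 near Atf4.

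Atf4, the factor that carries the transcriptional arm of the response, was lower in DC371739 livers. Atf4 (ENSMAUG00000012102, 3 exon intervals and 1432 exonic bases, scaffold KB708136.1, positions 2518801 to 2520891, plus strand) had 2046 to 3491 counts per library. Its level was 121 to 148 CPM in DC371739 livers, with a median of 130 CPM, against 142 to 196 CPM in control livers, with a median of 185 CPM. Every DC371739 liver was under the control median. The overlap came where DC371739 replicate 7 (148 CPM) exceeded control replicate 7 (142 CPM), both deeper libraries. Over the 11 shallower libraries the groups did not overlap, with 121 to 140 CPM in DC371739 livers against 177 to 196 CPM in control livers. The log2 fold change, DC371739 over control, was -0.43 (SE 0.083) over all 14 libraries, -0.44 (SE 0.075) with a term for library class and -0.52 (SE 0.067) over the 11 shallower libraries.

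Atf5 (ENSMAUG00000019941, scaffold KB708302.1, positions 2084069 to 2088885, plus strand) showed the same direction with far more spread. It ranged from 221 to 403 CPM in DC371739 livers, with a median of 313 CPM, and from 211 to 602 CPM in control livers, with a median of 451 CPM. All 7 DC371739 libraries were below the control median, but the 2 deeper control libraries, at 253 and 211 CPM, were as low as the DC371739 group. Among the shallower libraries the groups did not overlap, with 241 to 403 CPM in DC371739 livers against 441 to 602 CPM in control livers. Its log2 fold change was -0.46 (SE 0.21) over 14 libraries, -0.52 (SE 0.12) with the class term and -0.62 (SE 0.12) over the shallower ones.

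The order of the 2 factors differed between the library classes. Per length, Atf5 exceeded Atf4 in all 11 shallower libraries, by a ratio of 1.08 to 1.81 in the 6 DC371739 libraries and of 1.46 to 1.96 in the 5 control libraries. In all 3 deeper libraries Atf4 exceeded Atf5, with a ratio of Atf5 to Atf4 of 0.94 in the DC371739 library and of 0.93 in both control libraries. The log2 ratio of the 2 genes in CPM differed by 0.028 (SE 0.21) between DC371739 and control over all 14 libraries, where the deeper class holds 1 of the 7 DC371739 and 2 of the 7 control libraries. Over the shallower libraries the difference was -0.11 (SE 0.14), with means of 1.28 in DC371739 livers and 1.39 in control livers. In the fit with both terms, the coefficient of the deeper class was -0.88 (SE 0.15) for Atf5 and -0.086 (SE 0.091) for Atf4, on the log2 scale.

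**Figure D1:**
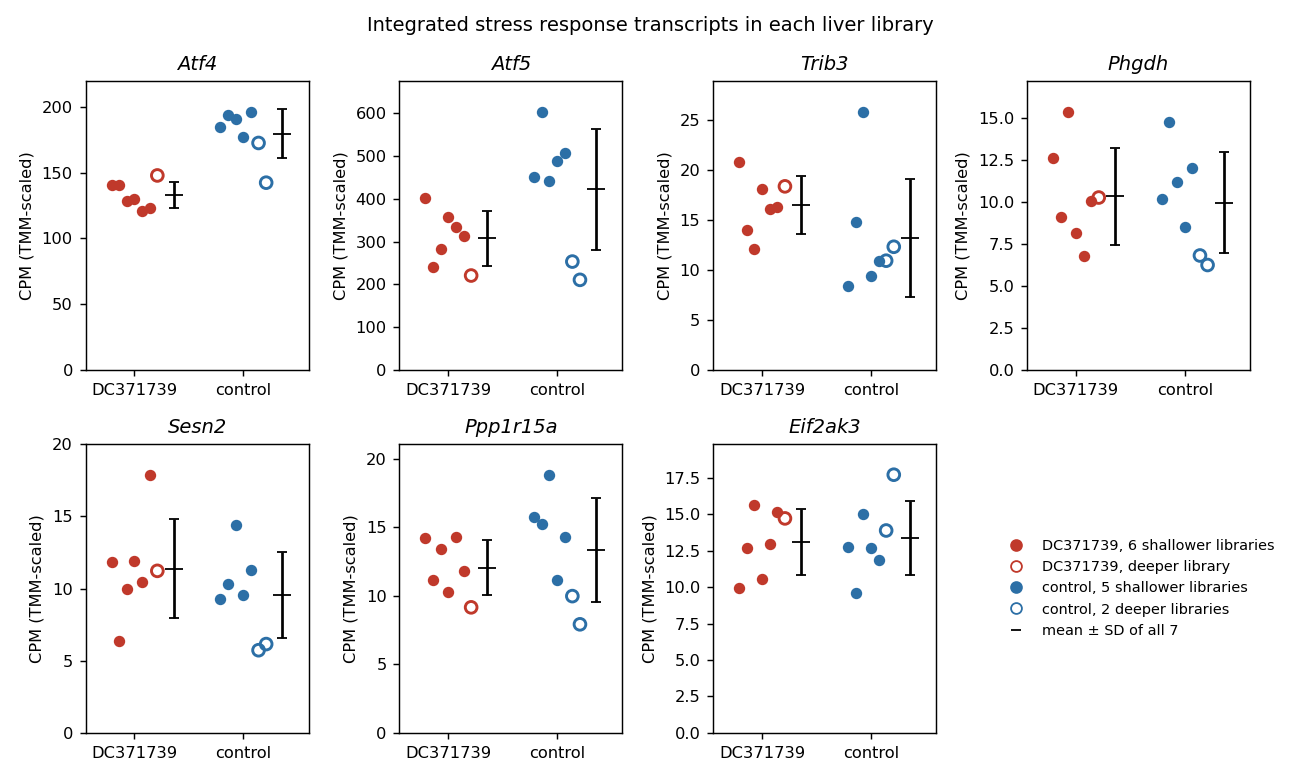
Level of each of the 7 members in every library, in TMM-scaled CPM on axes that start at 0, with DC371739 left and control right. Points are libraries, open circles are the 3 deeper ones, and bars give the mean ± SD of 7. The shallower DC371739 and control libraries separate for Atf4 (at most 140 against at least 177 CPM) and Atf5 (at most 403 against at least 441 CPM) and overlap for the other 5.

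Among genes that ATF4 is known to activate, Trib3, which encodes a pseudokinase that restrains ATF4 in turn, did not share the direction of Atf4. Trib3 (ENSMAUG00000016011, KB708160.1, positions 12381139 to 12383873) lay at 12.2 to 20.9 CPM in DC371739 livers, with a median of 16.4 CPM, and at 8.42 to 25.8 CPM in control livers, with a median of 10.965 CPM. All 7 DC371739 libraries were above the control median, and 1 control library, replicate 3, was higher than all of them. The log2 fold change was 0.32 (SE 0.21), and 0.57 without control replicate 3, whose 25.8 CPM stood well above the next control value of 14.9 CPM. Over the 11 shallower libraries it was 0.23 (SE 0.27). Set against Atf4 in the same library, the log2 ratio of Trib3 to Atf4 in CPM was -3.39 to -2.74 in DC371739 livers against -4.44 to -2.88 in control livers, a difference of means of 0.82 (SE 0.22). This was not seen for Trib3 alone. Against the lower Atf4, the same difference was 0.69 (SE 0.23) for Sesn2 and 0.49 (SE 0.18) for Phgdh. It was 0.40 (SE 0.19) for Eif2ak3 and 0.32 (SE 0.16) for Ppp1r15a. Over the shallower libraries it was 0.86 (SE 0.30) for Trib3 and 0.27 to 0.57 for the other 4. Each ratio holds the lower Atf4 (log2 fold change -0.43 over 14 libraries) with its sign turned. A gene with no difference of its own would thus give a positive value, and nothing further is read from the ratios.

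Sesn2, a stress-induced inhibitor of mTORC1 signalling and an ATF4 target, had widely overlapping groups. Sesn2 (ENSMAUG00000000726, KB708219.1, positions 5599997 to 5620171, minus strand) lay at 6.36 to 17.9 CPM in DC371739 livers, with a median of 11.2 CPM, and at 5.73 to 14.4 CPM in control livers, with a median of 9.53 CPM. The lowest controls were the 2 deeper libraries, at 5.73 and 6.16 CPM. Its log2 fold change was 0.26 (SE 0.22) with them and 0.061 (SE 0.21) over the shallower libraries. Leaving out DC371739 replicate 6, which held the highest value, gave 0.11, and leaving out control replicate 6 gave 0.17. With limma-voom and sample weights it was 0.016 over all 14 libraries.

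Phgdh, the enzyme that opens the serine synthesis pathway and is also an ATF4 target, showed no difference in level between the group means that exceeded its spread. Phgdh (ENSMAUG00000014304, KB708292.1, positions 140198 to 157012) lay at 6.79 to 15.3 CPM in DC371739 livers, with a median of 10.1 CPM, and at 6.25 to 14.7 CPM in control livers, with a median of 10.2 CPM. The ranges overlap widely, and the lowest controls were the deeper replicates 6 and 7, at 6.82 and 6.25 CPM. The log2 fold change was 0.060 (SE 0.20) over 14 libraries and -0.12 (SE 0.20) over the shallower ones. An SE of this size leaves room for a difference in either direction.

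The feedback subunit and the kinase, which act on eIF2 itself, are described next. Ppp1r15a, also called GADD34, brings protein phosphatase 1 to eIF2 and so ends the response. It (ENSMAUG00000018033, KB708302.1, positions 1285651 to 1288155, the same scaffold as Atf5 and 795913 bases away from it) lay at 9.16 to 14.3 CPM in DC371739 livers, with a median of 11.8 CPM, and at 7.92 to 18.8 CPM in control livers, with a median of 14.3 CPM. All 7 DC371739 libraries were below the control median, but control replicates 6 and 7, at 9.98 and 7.92 CPM, were lower than most of them. The log2 fold change was -0.14 (SE 0.17) over 14 libraries and -0.26 (SE 0.13) over the shallower ones, where the groups still overlapped. It was -0.041 without control replicate 3, -0.24 without control replicate 7 and -0.087 without DC371739 replicate 7. Eif2ak3, which encodes PERK, the eIF2 kinase of the endoplasmic reticulum, lay at 9.93 to 15.6 CPM in DC371739 livers and at 9.62 to 17.7 CPM in control livers (ENSMAUG00000000558, KB708185.1, positions 11194314 to 11259009). The DC371739 range lay inside the control range. Its medians were 12.9 and 12.8 CPM in DC371739 and control livers, and its log2 fold change was -0.032 (SE 0.14), a value whose sign changed with the scaling.

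Across all genes, edgeR's quasi-likelihood test called 225 of 12166 at an adjusted p under 0.05, which is 1.85% of those tested. In DC371739 livers 151 were higher (1.24%) and 74 lower (0.608%), where upper-quartile factors gave 223 and 65 and library totals alone 124 and 36. Leaving out 1 library at a time gave 25 (without DC371739 replicate 3 or 6) to 1069 (without DC371739 replicate 7) calls. Among the 7 members 1 was called over all 14 libraries, Atf4, which was lower. With the class term Atf4 and Atf5 were called, both lower, where 12.3% of all genes tested were called, 5.62% higher and 6.7% lower. The same pair was called over the 11 shallower libraries, where 21.5% of all genes were, 11% higher and 10.5% lower. Over 14 libraries the groups did not overlap in CPM for 0 of the 7 members, against 0.699% of all genes tested, 0.296% higher and 0.403% lower. Over the shallower libraries this held for Atf4 and Atf5, against 9.29% of all genes, 4.4% higher and 4.89% lower. As the members were proposed with this comparison known, nothing is read from these counts. Leaving out any of 4 libraries, control 3, control 5, DC371739 3 or DC371739 6, ended the call of Atf4, at an edgeR adjusted p of 0.0516 to 0.0575. In the authors' deposited table Atf4 has a log2 fold change of -0.43 and an adjusted p of 0.022, and Atf5 has -0.45 and 0.224.

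**Figure D2:**
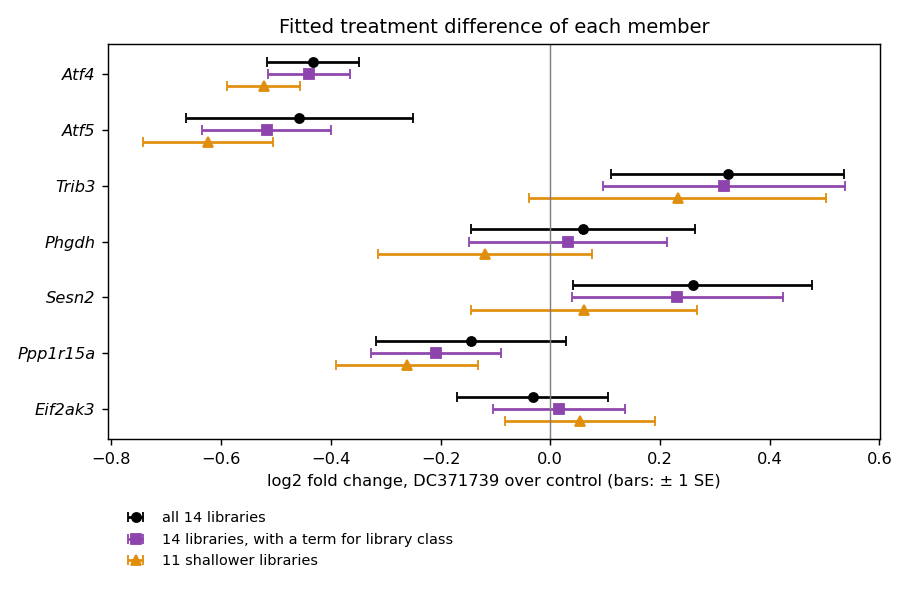
Fitted log2 fold change of each member, DC371739 over control, with bars of 1 SE, in 3 fits: all 14 libraries, the same with a term for library class, and the 11 shallower libraries. Atf4 (-0.43, -0.44 and -0.52) and Atf5 (-0.46, -0.52 and -0.62) lie left of 0 in all 3, Trib3 right of 0 (0.32, 0.32 and 0.23), and Phgdh and Eif2ak3 change sign between fits.

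The members differed in how much they varied among livers of 1 group, which is given as a description. Atf4 was the steadiest, with a within-group SD of 0.14 on the log2 CPM scale over 14 libraries, smaller than in most of the 500 genes nearest to it in abundance (18.6% of them had a smaller SD). Over the 11 shallower libraries its SD was 0.081, and 9% of the nearest genes had a smaller one. The other members except Eif2ak3 were more variable than most genes of their abundance. Over 14 libraries Ppp1r15a stood above 73% of its nearest genes. Eif2ak3 stood near the middle, above 52.6%, and above 78.2% over the shallower libraries. The SD was 0.45 for Atf5 and 0.45 for Sesn2, with 92.6% and 89.4% of the nearest genes below them, and it was 0.42 for Trib3, with 86% below. Over the shallower libraries Trib3 stood at 0.48, above 98% of its nearest genes, and Phgdh at 0.37, above 92.8%. Counting error at the lowest count was smaller than this spread in each member, to a differing degree. The 145 to 431 counts of Trib3 give a counting SD of at most 0.12 on the log2 scale, and the 4099 to 8839 counts of Atf5 one of at most 0.0225. For Eif2ak3, with 126 to 371 counts, it was at most 0.129, beside a within-group SD of 0.26.

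Co-variation of the members within groups was examined over the 11 shallower libraries alone, since the 3 deeper ones stand apart by depth. Group means were removed, and p came from 100000 permutations within groups. Of 21 pairs, none passed after Benjamini-Hochberg adjustment, and 2 had an unadjusted permutation p under 0.05. Atf5 and Eif2ak3 ran opposite (r = -0.73, permutation p = 0.0195, adjusted p = 0.381; rho = -0.75, permutation p = 0.0168, adjusted p = 0.182), and r was -0.90 without the 2 libraries farthest from the median of Atf5. Trib3 and Sesn2 ran together (r = 0.52, permutation p = 0.0363, adjusted p = 0.381; rho = 0.70, permutation p = 0.0173, adjusted p = 0.182), with r of 0.37 without the 2 libraries farthest from the median of Trib3. Atf4 had r of 0.025 with Atf5, 0.29 with Trib3, 0.52 with Phgdh, -0.31 with Sesn2, 0.21 with Ppp1r15a and -0.42 with Eif2ak3, with adjusted permutation p from 0.829 to 0.949.

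**Figure D3:**
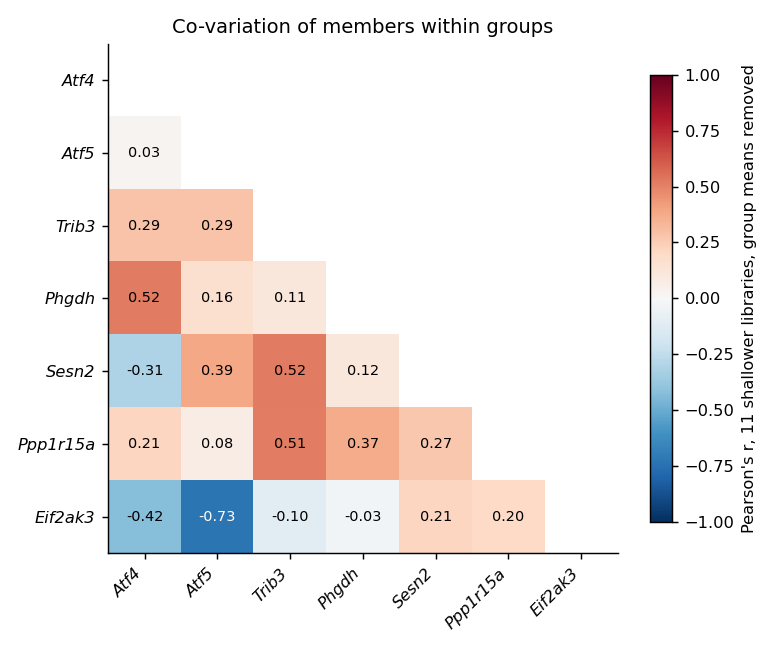
Pearson's r between members over the 11 shallower libraries, from log2 CPM with group means removed, with red for positive and blue for negative values. The strongest cell is Atf5 with Eif2ak3 (-0.73), followed by Trib3 with Sesn2 and Atf4 with Phgdh (0.52 each), and no pair passed adjustment over 21 pairs.

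Of 117 further genes of the pathway, listed by role, 94 had a row and were tested. With edgeR over all 14 libraries 1 of the 94 rose, 0 fell and 93 did not pass, where 1.85% of all genes tested were called. An unadjusted p under 0.05 was held by 17, and by 2476 of all 12166 genes tested. On the same libraries DESeq2 called 2 higher and 2 lower, where it called 832 of 13823 genes. Run with sample quality weights, limma-voom called 11 higher and 9 lower, where it called 2739 of 12166 genes. The counts per list below stand beside these same totals, and nothing is read from them. Log2 fold changes were positive for 47 and negative for 47, with a median of -0.0016, beside -0.022 over all genes tested. With the class term there were 4 that rose and 5 that fell, where 12.3% of all genes were called. The 11 shallower libraries gave 11 and 7, where 21.5% of all genes were called. These counts were not set against those shares by a test.

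The gene that rose was Slc1a5, which encodes the neutral amino acid transporter ASCT2, an ATF4 target that imports glutamine. It lay at 1.98 to 4.43 CPM in DC371739 livers, with a median of 2.89 CPM, against 0.99 to 1.80 CPM in control livers, with a median of 1.63 CPM. The groups did not overlap over all 14 libraries, which held for 1 of the 94 wider genes and for 0.699% of all genes tested. The log2 fold change was 0.93 (SE 0.21, edgeR adjusted p = 0.0373), and the call was lost, with an adjusted p of up to 0.0928, without any of control replicates 1 to 5 or DC371739 replicates 2, 3, 5 and 6. Of the 10 transporters DESeq2 called 2, Slc1a5 and Slc7a1, both higher, and limma-voom 5. Slc7a1, the transporter of cationic amino acids, stood at 0.84 (SE 0.23, edgeR adjusted p = 0.0604), and edgeR called it with the class term (adjusted p = 0.0330) and over the shallower libraries (adjusted p = 0.0226). Slc38a2, which also takes up neutral amino acids and is induced by amino acid shortage, stood at -0.47 (SE 0.17, adjusted p = 0.125), and was called lower with the class term (edgeR adjusted p = 0.0334) and over the shallower libraries (adjusted p = 0.0153). In the same list Slc38a4 stood at -0.22 (SE 0.11, adjusted p = 0.255), and at -0.099 over the shallower libraries. Of the 10 transporters tested, 4 had positive and 6 negative log2 fold changes.

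Genes upstream of Atf4 gave no call with edgeR over 14 libraries. Of 9 genes of eIF2 kinases and their inputs, 0 passed edgeR's test and 0 had an unadjusted p under 0.05. DESeq2 and limma-voom also called 0. Dele1, which relays mitochondrial stress, had 0.24 (SE 0.13), the GCN2 activator Gcn1 0.18 (SE 0.12), the haem-sensing kinase Eif2ak1 0.075 (SE 0.061) and the GCN2 inhibitor Impact -0.20 (SE 0.26). Impact turned to 0.021 (SE 0.15) with the class term and 0.11 (SE 0.17) over the shallower libraries. Log2 fold changes in this list were positive for 4 and negative for 5 over 14 libraries, and positive for 8 and negative for 1 in each of the other fits. Of 10 genes of eIF2B, eIF2-related factors and phosphatase, 0 passed, 2 had an unadjusted p under 0.05, and DESeq2 called 0 and limma-voom 1 (Ppp1cb, higher). The exchange factor subunits Eif2b1 (-0.22, SE 0.087) and Eif2b3 (-0.24, SE 0.11) had adjusted p of 0.165 and 0.236. Ppp1r15b, the constitutive counterpart of Ppp1r15a, stood at 0.30 (SE 0.17), and Eif2a at 0.10 (SE 0.098), or 0.19 over the shallower libraries.

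Partner factors and downstream outputs pointed both ways. Of 19 tested, 0 passed edgeR's test, 7 had an unadjusted p under 0.05, and DESeq2 called 1 (Cebpa, lower) and limma-voom 7. Cebpa, a hepatocyte transcription factor that can pair with ATF4, averaged 32.9 ± 11.9 CPM in DC371739 livers and 51.7 ± 9.18 CPM in control livers (SD, n = 7 each, log2 fold change -0.65, SE 0.20, edgeR adjusted p = 0.0839). Over the shallower libraries it was called lower, at -0.86 (edgeR adjusted p = 0.0093). The stress factor Atf3 stood at -0.82 (SE 0.30, adjusted p = 0.138), with 49.3 CPM in the deeper control replicate 6 and 19.8 CPM in the next control, and at -0.51 (SE 0.19) over the shallower libraries. In the other direction stood Pmaip1, a pro-apoptotic BCL2-family gene, at 0.87 (SE 0.31, adjusted p = 0.127), and the stress protein gene Nupr1 at 0.88 (SE 0.38, adjusted p = 0.209), at means of 1.07 and 1.16 CPM in DC371739 livers and 0.58 and 0.63 CPM in control livers.

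**Figure D4:**
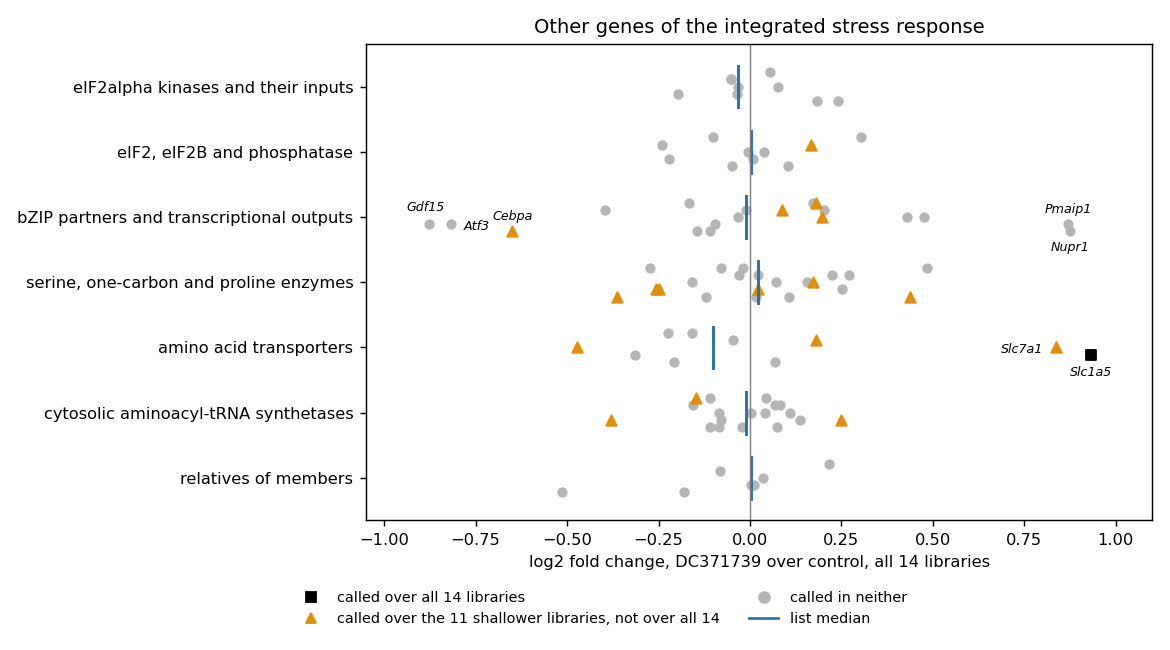
Log2 fold change over all 14 libraries, DC371739 over control, of the 94 tested genes in 7 lists. Squares were called over 14 libraries, triangles over the 11 shallower libraries but not over 14, grey points in neither, and blue lines are list medians. Slc1a5 (0.93) is the single square, and the list medians lie between -0.10 and 0.021.

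Enzymes of serine, folate-cycle and proline metabolism gave 0 calls of 21 tested with edgeR, 3 with an unadjusted p under 0.05, 0 with DESeq2 and 4 with limma-voom. Aldh18a1, the enzyme at the start of proline synthesis, had 0.44 (SE 0.17, adjusted p = 0.160) and was called higher in both other fits, and Mthfd2, a mitochondrial folate enzyme and ATF4 target, 0.48 (SE 0.21, adjusted p = 0.1996). Psph, the last enzyme of serine synthesis, had -0.36 (SE 0.15, adjusted p = 0.190) and was called lower over the shallower libraries (-0.52, edgeR adjusted p = 0.0253), and Shmt2, which passes serine carbon to folate in mitochondria, -0.27 (SE 0.14, adjusted p = 0.266). Of 18 genes tested in the list of cytosolic aminoacyl-tRNA synthetases and Xpot, 0 passed, 1 had an unadjusted p under 0.05, and DESeq2 called 1 and limma-voom 2. That 1 was the cysteinyl-tRNA synthetase Cars, at 18.5 ± 2.06 CPM in DC371739 livers and 24.1 ± 4.19 CPM in control livers (log2 fold change -0.38, SE 0.11, edgeR adjusted p = 0.0795, n = 7 each), and it was called lower in both other fits. Qars (0.11, SE 0.062), the transfer RNA exporter Xpot (0.25, SE 0.18) and Rars (-0.16, SE 0.11) came next by p. Xpot was called higher over the shallower libraries, at 0.48 (edgeR adjusted p = 0.0379). The median of this list was -0.0098.

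Among 7 relatives of the members, Trib1, Trib2, Sesn1, Sesn3 and the factors Atf1, Creb1 and Creb3l3, 0 passed, 1 had an unadjusted p under 0.05, and DESeq2 called 0 and limma-voom 1. Trib1, a pseudokinase of the same family as Trib3, lay at 23.92 ± 5.52 CPM in DC371739 livers and 34.2 ± 9.01 CPM in control livers (log2 fold change -0.51, SE 0.17, edgeR adjusted p = 0.112, n = 7 each). This is opposite in sign to Trib3, and the difference between the 2 genes was not tested. Atf1 stood at -0.18 (SE 0.094), Sesn3 at 0.22 (SE 0.14) and Sesn1 at -0.082 (SE 0.13). In the shallower libraries alone Sesn3 stood at 0.39 and Sesn1 at -0.017.

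Over the 14 libraries, with group means removed, the log2 CPM of Ocel1, Nelfe, Dcdc2b, Kxd1 and Dph7 followed that of Atf4 most closely among 8808 genes with a symbol and a log2 CPM averaging 1 or more. Pearson's r was 0.90 for Ocel1, 0.89 for Nelfe and Dcdc2b and 0.88 for Kxd1 and Dph7, as a description of libraries that share depth classes. Over the 11 shallower libraries r was 0.84, 0.87, 0.79, 0.73 and 0.61 in the same order. Ocel1, at 7.61 ± 1.34 CPM in DC371739 livers and 11.5 ± 3.11 CPM in control livers (SD, n = 7 each), had a log2 fold change of -0.59 (SE 0.17, edgeR adjusted p = 0.0705). The other 4 ranged from -0.26 to -0.13, with adjusted p of 0.369 to 0.617.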

How the data were processed

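Liver RNA of 14 samples was measured by RNA sequencing. The submitters' processing notes name featureCounts 2.0.0, HISAT2 2.2.1 and edgeR. Build, annotation and strandedness are not stated there, so coordinates are those of the deposited count table, and reads of near-identical or overlapping genes cannot be told apart. The deposited counts are whole numbers per Ensembl gene. The authors' FPKM equal count over exon length times 1 constant per library (largest relative deviation 1.3e-07). Per the file headers, the authors' deposited comparison table holds a log2 fold change, a p-value and an FDR per gene, and how they were made is not stated there beyond edgeR being named. Symbols come from that table; 0 Ensembl identifiers matched the reference table. No sequences were available to print.

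Testing of the counts used edgeR 4.0.16 under R 4.3.3 (TMM, filter at a minimum count of 10, robust quasi-likelihood F-test, Benjamini-Hochberg adjustment over all genes tested, threshold 0.05), with treatment as the single term and all 14 libraries. SE of an edgeR log2 fold change or class coefficient is its size over the square root of F. For differences in a log2 ratio of 2 genes, SE comes from the variance of the per-library ratios in each group. Log2 CPM used a prior count of 2. The ratios to Atf4 over the shallower libraries were added after seeing the data. Alternatives included DESeq2 1.42.0 and limma-voom (limma 3.58.1). Wherever limma-voom is named, it was run with sample quality weights, so it differs from edgeR in the weight of each library too. The procedure was tested on simulated counts, drawn from the same mean profile for all libraries apart from set differences between groups. They held no difference between library classes, so that test does not cover the classes seen here. Replicates differed by more than sampling noise (chi-square per degree of freedom of at least 9.04 in 42 pairs within groups). Members, lists and alternatives were chosen with earlier results of these data known. Named beside the members were, per list, all genes called or the 4 of smallest p, and the 5 genes most correlated with Atf4.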

Additional observations from a re-analysis of the deposited data

Results flagged for a closer look

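In 70 groups of 7 libraries, for the members and the named genes of the wider lists, 6 values lay apart from their group by a gap past Dixon's criterion, which chance meets in about 1 group in 20. Among the members it was Trib3, at 25.8 CPM in control replicate 3 against 14.9 CPM in the next control. The others were Mthfd2, at 2.66 CPM in DC371739 replicate 5 and at 2.04 CPM in control replicate 3, Eif2b3, at 14.04 CPM in control replicate 2, and, both in the deeper control replicate 6, Atf3 at 49.3 CPM and Sesn1 at 58.5 CPM.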

How the results depend on the processing

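The log2 fold changes of Atf5, Trib3, Sesn2 and Ppp1r15a kept their sign under every setting run, though Sesn2 came to 0.016 with limma-voom, against 0.26 with edgeR. For Atf4 the value was -0.43 with a block on replicate number, where its call was lost (edgeR adjusted p = 0.0705), and it ranged from -0.48 to -0.41 with each library left out. Its adjusted p was 0.000107 to 0.0705 over the 10 settings that left out no single library. The labels do not say whether same-numbered samples were paired. Same-numbered libraries correlated at -0.13 to 0.55, and 0 of 7 DC371739 libraries matched their own number best. The 0.55 belonged to the number 7 libraries, both of the deeper class. As these correlations hold the library classes, they cannot exclude a weak pairing. For Atf5 the call appeared at -0.59 with limma-voom, -0.62 in the shallower libraries and -0.52 with the class term. Phgdh turned to -0.098 with limma-voom and -0.12 over the shallower libraries, and ranged from -0.063 to 0.18 with a library left out. Eif2ak3 turned to 0.0036 with library totals alone, 0.021 with limma-voom, 0.054 in the shallower libraries and 0.016 with the class term, and ranged from -0.097 to 0.051. The count of all genes called was 832 with DESeq2, 2739 with limma-voom, 8 with the replicate block, 2635 in the shallower libraries and 1499 with the class term, and 25 to 1069 with a library left out. It was 1069 without DC371739 replicate 7, 542 without control replicate 7, 51, 25, 77 and 25 without DC371739 replicates 2, 3, 5 and 6, and 106, 73, 53 and 63 without control replicates 1, 2, 3 and 5. Of the 94 wider genes 4, 20, 0, 18 and 9 were called in the same order, and 0 to 4 with a library left out. The cause was not tested. At the lowest counts, counting error gave an SD of 0.0225 (Atf5) to 0.139 (Sesn2) on the log2 scale.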
